A study of Drosophila melanogaster with 3 samples.

Results

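The genes bab1 and bab2 were examined in a map of where a GFP-tagged form of the Hox protein abd-A was detected on chromatin of Drosophila melanogaster embryos. The members were chosen by name, 2 of 13945 protein-coding genes, with the window set as both gene bodies, the interval between them and 10 kb on each side (dm6, chromosome 3L, 1026369 to 1187276, 161 kb). A peak belonged to the window when its summit lay there, which gave 9 of the 8143 peaks in the list thresholded by the irreproducible discovery rate (IDR, a measure of how well peak ranks repeat) and 54 of the 30000 peaks called on all replicates together (the pooled list). The replicate 1, 2 and 3 lists, of 30000 peaks each, held 43, 56 and 55. The series has 1 group, chromatin immunoprecipitation with anti-GFP from 3 biological replicates of whole embryos, 4 to 24 hours old and of mixed sex, from a transgenic line that stably expresses abd-A with GFP at its C-terminus. Chromatin was sonicated to 200 to 800 bp. The labels do not say which promoter drives the tagged protein or how much of it there is relative to untagged abd-A. The peaks come from all tissues of the embryo at once, and a peak in few cells cannot be told apart from a weak peak in many.

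The bric-a-brac genes encode a pair of related nuclear proteins with a BTB domain, through which such proteins pair, and a DNA-binding domain. They are needed for the terminal filaments of the ovary and for the distal segments of the leg, and in the adult abdomen they repress dark pigment in females. Their abdominal expression is known to be set by the Hox protein Abd-B and the sex-determination protein dsx through regulatory DNA inside the large intron of bab1. abd-A specifies the abdominal segments in front of those ruled by Abd-B. Both genes lie on the minus strand of 3L, bab2 upstream of bab1. The bab1 gene (FBgn0004870) spans 1036369 to 1101089 with 4 exons and an intron 1 of 58.7 kb. The bab2 gene (FBgn0025525) spans 1140429 to 1177276 with 5 exons and an intron 2 of 28.8 kb. In both, the largest intron separates the first coding exon from the other coding exons.

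The DNA under the strongest site of the window is shown first. It holds 2 IDR summits and the only Hox words within 100 bp of an IDR summit of these genes. It lies in intron 2 of bab2 (dm6, chr3L:1152936-1153235, plus strand, RefSeq sequence), with Hox words in capitals.

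bab2 intron, 2 summits: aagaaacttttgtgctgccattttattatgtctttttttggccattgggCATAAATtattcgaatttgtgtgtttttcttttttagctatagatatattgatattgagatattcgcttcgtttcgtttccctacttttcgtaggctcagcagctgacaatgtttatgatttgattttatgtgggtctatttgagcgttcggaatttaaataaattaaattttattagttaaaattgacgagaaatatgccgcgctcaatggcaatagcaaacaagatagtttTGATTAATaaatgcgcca

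The next 3 sequences are the other intronic summits with a score above 2 times the list median, 2 in bab2 (chr3L:1146575-1146775 and chr3L:1170697-1170897) and 1 in bab1 (chr3L:1062591-1062791). The last one shows the IDR summit upstream of bab2 (chr3L:1178241-1178441). All are 201 bases on the plus strand around the summit, with the word GAGAG on either strand in capitals.

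bab2 intron, 1146675: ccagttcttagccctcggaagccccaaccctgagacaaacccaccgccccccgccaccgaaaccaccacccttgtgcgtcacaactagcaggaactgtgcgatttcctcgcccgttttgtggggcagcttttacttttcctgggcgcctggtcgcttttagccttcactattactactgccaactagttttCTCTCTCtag

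bab2 intron, 1170797: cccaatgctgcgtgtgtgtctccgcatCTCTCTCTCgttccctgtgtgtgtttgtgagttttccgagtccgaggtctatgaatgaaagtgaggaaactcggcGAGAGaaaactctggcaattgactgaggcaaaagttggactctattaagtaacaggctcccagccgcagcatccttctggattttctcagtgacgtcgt

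bab1 intron, 1062691: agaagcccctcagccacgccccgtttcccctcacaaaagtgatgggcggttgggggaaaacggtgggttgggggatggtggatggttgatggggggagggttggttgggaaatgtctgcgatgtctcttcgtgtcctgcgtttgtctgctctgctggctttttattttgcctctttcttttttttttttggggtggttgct

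upstream of bab2, 1178341: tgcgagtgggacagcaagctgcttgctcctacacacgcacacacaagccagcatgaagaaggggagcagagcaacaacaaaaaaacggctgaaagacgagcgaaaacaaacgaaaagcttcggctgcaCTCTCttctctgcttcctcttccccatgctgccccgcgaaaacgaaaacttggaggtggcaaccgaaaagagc

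Peaks were unevenly spread over the window. The bab2 gene body held 5 IDR summits, the bab1 gene body 2 and the interval between the genes 0, while 1 lay upstream of bab2 and 1 in the neighbouring gene trio past the 3' end of bab1. In all, 9 of the 54 pooled summits were in the IDR list, or 16.7% (95% Clopper-Pearson interval 7.92 to 29.3), against 27.1% of all pooled peaks. The IDR density was 55.9 per Mb, 0.92 times that of the main chromosome arms (60.8 per Mb), whereas the pooled density was 336 per Mb, 1.5 times that of the arms (224 per Mb). Pooled scores in the window had a median of 0.805 times the list median. When the arms were divided into 830 consecutive windows of this length, 48.9% held at least 9 IDR summits and 23.0% at least 54 pooled summits.

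**Figure D1:**
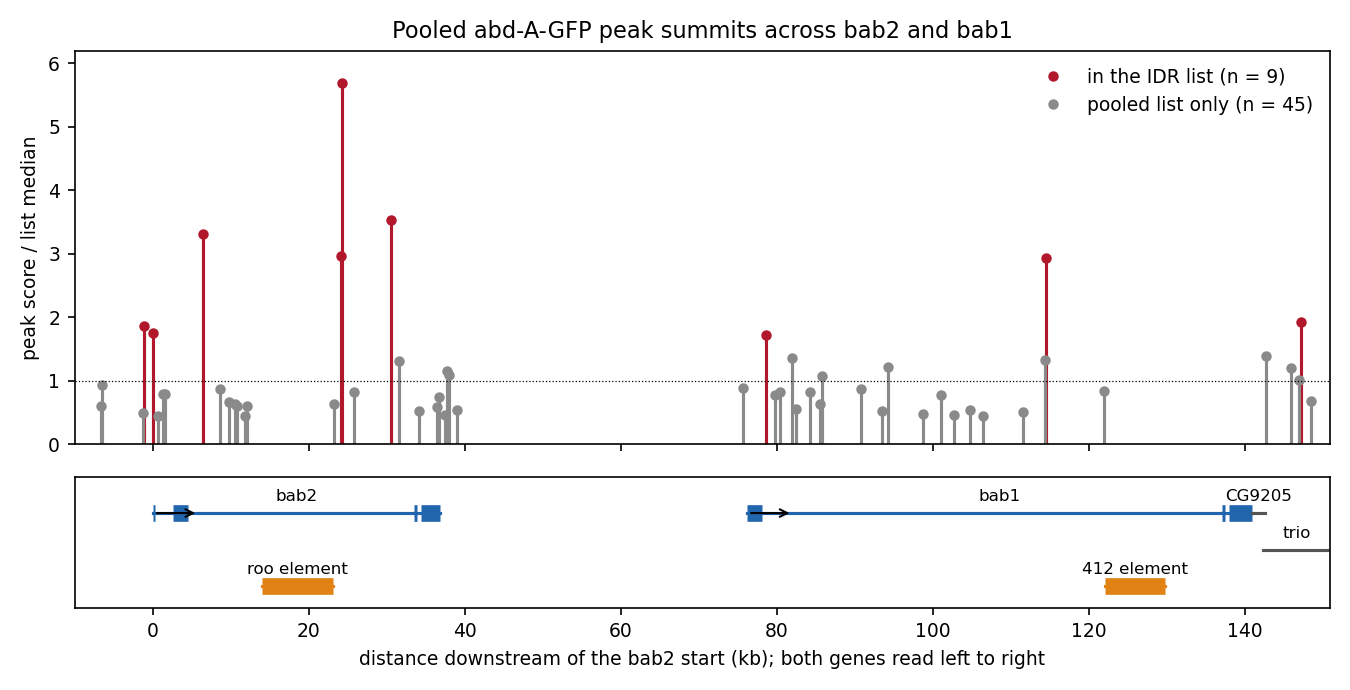
Pooled peak summits along bab2 and bab1, with the distance downstream of the bab2 start in kb on the x axis and the peak score divided by the list median on the y axis; red summits are in the IDR list, grey ones are not, and the lower panel gives exons as blocks and annotated transposable elements in orange. The tallest summit, at 5.69, lies in the large intron of bab2, and a stretch of 36.6 kb between the genes has no summit.

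At bab2 the strongest peak lay in intron 2, 24305 bp downstream of the start (summit 1152971, interval 1152655 to 1153369, sequence above). Its score was 4.24, 6.06 and 5.44 times the list median in replicates 1, 2 and 3, or 5.25 ± 0.923 (SD, n = 3). It ranked 1093, 362 and 513 among 30000 in those lists, and 510 in the pooled list. In each replicate no other summit of the window was as high. The same interval carried another summit 200 bp away (1153171), at 2.94, 2.33 and 2.26 times the median in replicates 1, 2 and 3 (2.51 ± 0.377). The lower summit was below the taller one in every replicate, and both had a partner within 32 bp in each list.

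Intron 2 of bab2 carried a further pair of strong summits. The one nearest the 3' exons, 30601 bp from the start (1146675, interval 1146338 to 1146930), had scores of 3.46, 2.43 and 3.95 times the median in replicates 1, 2 and 3 (3.28 ± 0.773). The one nearest the second exon, 6479 bp from the start (1170797, interval 1170688 to 1170963), had 3.22, 2.52 and 3.91 times the median (3.22 ± 0.696). These means differed by less than the spread between replicates, and replicate 2 was the lowest and replicate 3 the highest at both. A weaker summit outside the IDR list lay beyond 1146675 towards the 3' exons (1145723), at 1.2, 1.44 and 1.16 times the median in replicates 1, 2 and 3. The 4 IDR summits of this intron gave 139 per Mb, 2.28 times the mean of the arms.

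Around the bab2 start the peaks were weaker. A summit 52 bp inside the gene, in the noncoding first exon (5' UTR, 1177224, interval 1177143 to 1177298), had 1.66, 1.45 and 2.18 times the median in replicates 1, 2 and 3 (1.76 ± 0.373). A summit 1065 bp upstream of the start (1178341, interval 1178103 to 1178578, between genes) had 1.90, 1.58 and 1.77 times the median (1.75 ± 0.157). The upstream summit was among the 8143 strongest peaks of all 3 replicate lists and the one at the start in 2 of them. Their means did not differ beyond the spread between replicates.

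**Figure D2:**
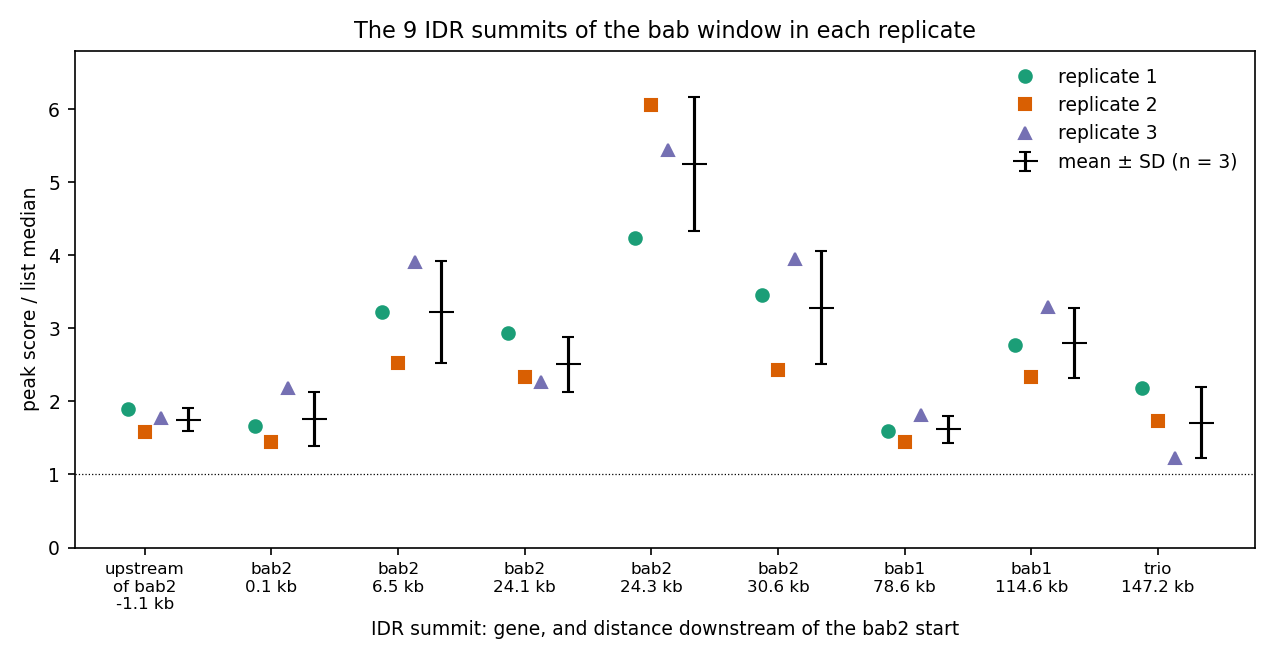
Score divided by the list median (y axis) of each of the 9 IDR summits in replicates 1, 2 and 3 (points) with the mean and SD beside them; the x axis names the gene and the distance downstream of the bab2 start in kb. The bab2 intron summit with a mean of 5.25 stands above the other summits in every replicate, while the summits near both gene starts lie between 1.45 and 2.18.

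The bab1 gene had fewer strong peaks. Its best summit lay deep in intron 1, 38398 bp downstream of the start (1062691, interval 1062464 to 1062897), at 2.77, 2.33 and 3.29 times the median in replicates 1, 2 and 3 (2.8 ± 0.48). In all 3 replicates these values lay below those of the bab2 summits 1146675 and 1170797, although the ranges over replicates overlap. They also lay below the strongest bab2 summit in all 3 replicates. The other IDR summit of bab1 was also in intron 1, 2412 bp from the start (1098677), at 1.59, 1.45 and 1.82 times the median (1.62 ± 0.185). It was the weakest IDR peak of the window, with rank 7174 in the pooled list and 1.72 times the median. The strongest window peak outside the IDR list had rank 9951 and 1.39 times the median, and the list as a whole ended at 1.59.

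The pooled summit nearest to the bab1 start lay 530 bp upstream (1101619) and was not in the IDR list. Its scores were 0.80, 0.75 and 0.87 times the median in replicates 1, 2 and 3 (0.807 ± 0.0569). These stood below the 3 values of the summit at the bab2 start, with no overlap. Of the 20 pooled summits in bab1, 8 lay in the first 10 kb, 1 of them in the IDR list. Replicates 1, 2 and 3 placed 8, 9 and 10 summits there. The first 10 kb of bab2 likewise held 7 of its 20 pooled summits. The strongest pooled summit in the first 10 kb of bab1 outside the IDR list lay 5785 bp from the start (1095304). It had 1.54, 1.44 and 0.95 times the median in replicates 1, 2 and 3. No list had a summit from 1036369 to 1051089, at the 3' end of the gene.

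The DNA between the genes, 39.3 kb long, is noncoding and holds no annotated transposable element. It carried 5 pooled summits at 127 per Mb, 0.567 times the mean of the arms, and 4 of them lay between 1138269 and 1139806, near the 3' end of bab2. From 1101620 to 1138268 no pooled summit was called over 36.6 kb. In replicates 1, 2 and 3 the longest free stretch here was 36.8, 36.5 and 36.6 kb. The median distance between neighbouring pooled summits along the arms was 1249 bp, and 531 of 29994 such gaps (1.77%) were at least as long as this one. It was picked as the longest gap of a window with many gaps, so this share does not show that the window is unusual. The GC content of the stretch was 45.5%, against 42.1% for the arms.

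**Figure D3:**
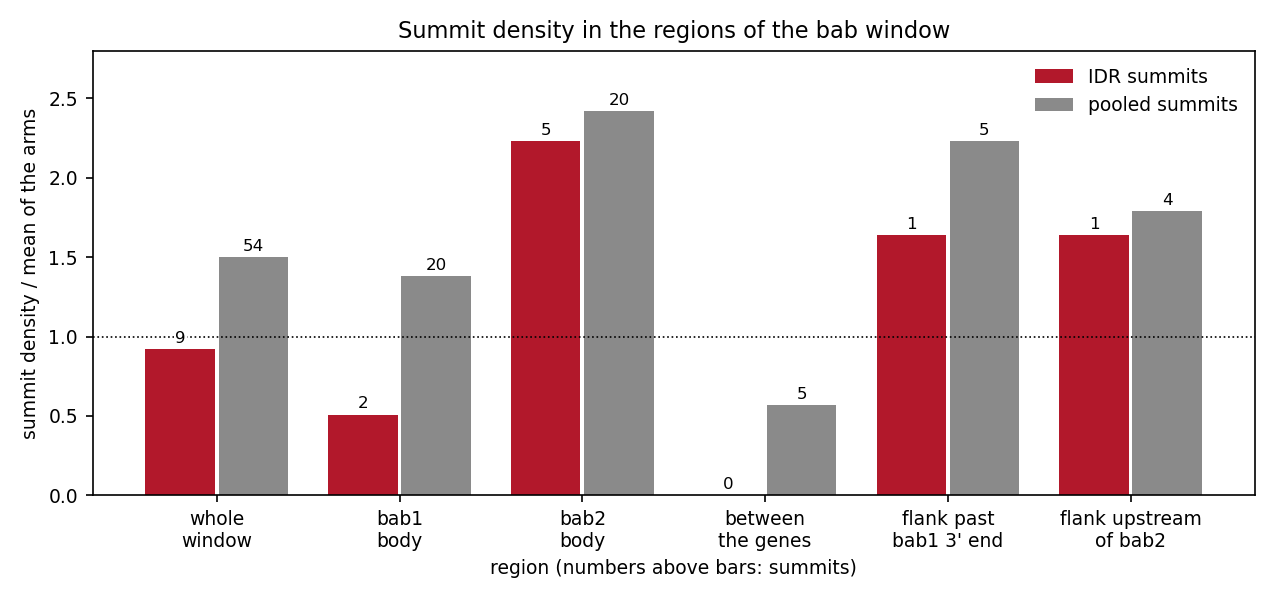
Density of IDR summits (red) and pooled summits (grey) in the regions of the window, divided by the mean density of the main arms (y axis), with the number of summits above each bar; the dotted line marks the mean of the arms. The bab2 body stands at 2.23 and 2.42, the bab1 body at 0.508 and 1.38, and the interval between the genes at 0 and 0.567.

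The next longest free stretches held transposable elements of the reference genome, which made up 36.9% of the 20.8 kb across the 3' end of bab1 and 81.2% of the 11.2 kb in bab2 intron 2. No list had a summit inside the annotated element of bab1 intron 1 (1047496 to 1055161) or the roo element of bab2 intron 2 (1154185 to 1163277), both long terminal repeat retrotransposons. These elements make up 11.8% of the bab1 body and 24.7% of the bab2 body. Across the arms 0.07% of pooled summits lay in annotated elements, which cover 5.93% of the length. Whether reads could be placed in these copies, or whether the tagged line carries them, was not tested. Leaving annotated elements out of the window and the arms, an alternative chosen after seeing the data, gave 0.967 times the mean for IDR summits and 1.57 times for pooled summits.

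The pooled summits of the window lay outside coding exons, as did nearly all pooled summits of the arms. Coding exons cover 5.99% of the window and held 0 of the 54 pooled summits, the nearest of which was 177 bp from a coding base. Over the arms, coding exons cover 17.1% of the length and held 0.74% of pooled summits. In the window 41 lay in introns or noncoding exons, 9 between genes, 2 in 5' UTRs and 2 in 3' UTRs. All 20 pooled summits of the bab1 body were in intron 1, and of the 20 in the bab2 body 13 were in intron 2.

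Set beside genes of like size, the 2 members stood on opposite sides of the middle. Among 373 other protein-coding genes within 25% of the length of bab2, the gene body held a median of 2 IDR summits and a range of 0 to 22, and 20.1% held at least the 5 of bab2. Among 200 genes within 25% of the length of bab1, the median was 3.5 and the range 0 to 34, and 75% held at least the 2 of bab1. By pooled summits bab2 had 20, against a median of 11 for its 373 genes, of which 13.7% had at least as many. The bab1 body also had 20, against a median of 20 for its 200 genes, of which 51.5% had at least as many. The genes most like bab2 by this count and by length were bol, an RNA-binding protein gene of the male germline, beat-VII, of the beaten path family, and Ace, the acetylcholinesterase gene, with 5 IDR summits each and 15, 18 and 23 pooled summits. Those most like bab1 were DIP-alpha, a neuronal surface protein gene, Ank2, an ankyrin gene, and Drak, a kinase gene, with 2 IDR summits each and 18, 5 and 28 pooled summits. Shared numbers of summits say nothing of shared positions or function.

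**Figure D4:**
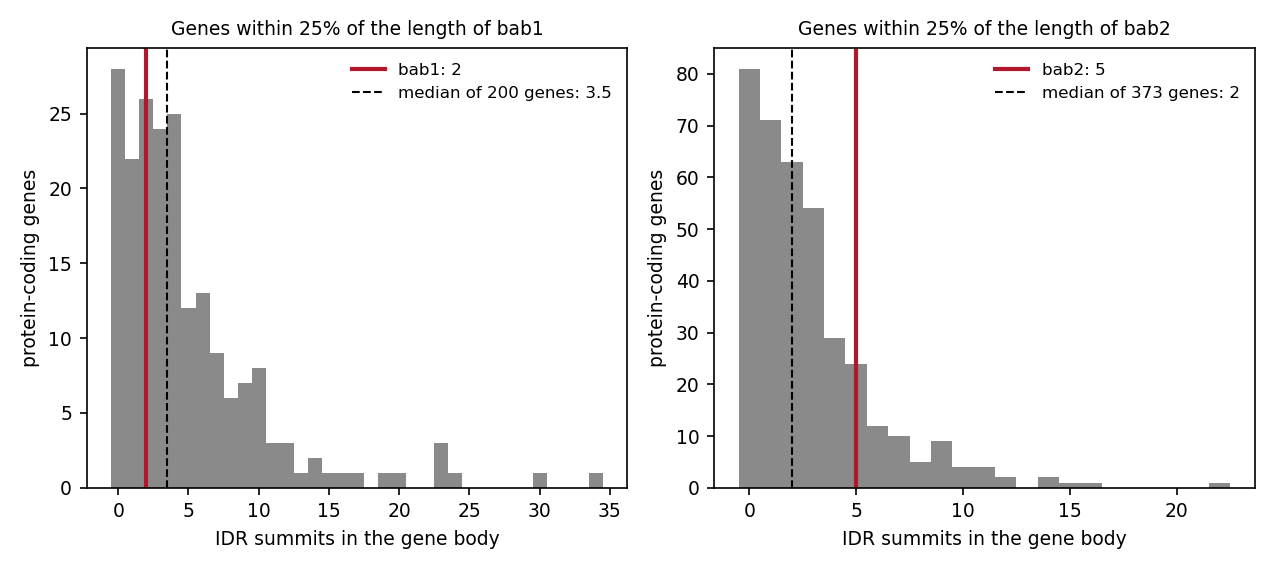
Number of protein-coding genes (y axis) by IDR summits in the gene body (x axis), for the 200 genes within 25% of the length of bab1 (left) and the 373 within 25% of the length of bab2 (right). Red lines mark the members, 2 for bab1 and 5 for bab2, and dashed lines the medians of 3.5 and 2.

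Most pooled peaks recurred in the replicates, in the window as along the arms. Of the 54 pooled summits, 40 had their peak overlapped in all 3 replicate lists, 74.1% (95% Clopper-Pearson interval 60.3 to 85.0), against 82.1% of all pooled peaks, and 1 in none. For pooled peaks outside the IDR list these shares were 68.9% in the window and 76.0% along the arms. The pooled list was called on the same reads, so this support is not independent. Each of the 9 IDR summits had a partner within 100 bp in each replicate list, and 6 were among the 8143 strongest peaks in all 3. The IDR list was made from the replicate and pooled lists, so such partners are largely built into it. These counts were not made over all IDR peaks and do not set the window apart. Among the 8143 strongest peaks of each replicate list, the window held 10 in replicate 1, 8 in replicate 2 and 8 in replicate 3 (8.67 ± 1.15, SD, n = 3). The bab2 body had 5, 4 and 5 of these in replicates 1, 2 and 3, and the bab1 body had 2, 1 and 2. In every replicate bab2 had more of them than bab1, although its body is the shorter one.

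In the window, the share of IDR summits with a Hox word was near that over all IDR summits. The words sought on both strands within 100 bp of a summit were the homeodomain word TAATTA and its longer form TTAATTA, which overlap; the composite Exd-Hox words TGATTTAT and then TGATTAAT; and ATTTATG, of the kind posterior Hox proteins bind. At least 1 of these was found at 2 of the 9 IDR summits (22.2%), against 20.4% of all IDR summits. Both were in the bab2 intron interval with 2 summits, where ATTTATG lay on the minus strand at 1152985 to 1152991 and TGATTAAT on the plus strand at 1153218 to 1153225, their centres 17 and 50 bp from the nearest summit. TAATTA was found at 0 of the 9, against 9.53% of all IDR summits, but at 9 of the 54 pooled summits (16.7%), against 10.2% of all pooled summits. At least 1 of the words was found at 15 of the 54 pooled summits (27.8%), against 21.5% of all pooled summits. These matches are a description of letters in a window and do not show binding sites.

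Base composition set the same bab2 interval apart within the window. Its summits had 34.8% and 34.3% GC in 201 bp, while the other 7 IDR summits of the window had 42.3% or more, and the median of all IDR summits was 46.3%. The 4-base homeodomain core TAAT, a word added after the values were seen, occurred at 6 of 9 summits, against 77.4% of all IDR summits. GAGAG, the word of the GAGA factor, occurred at 4 of 9 summits (44.4%), against 35.0% of all IDR summits. It had 4 places around the bab2 summit 1170797, 2 around 1146675 and 1 each around 1178341 and the trio summit. Overlapping places were counted separately, so both around 1146675 lie in the single stretch CTCTCTC. Most of those around 1170797 lie in CTCTCTCTC. Among pooled summits the order was reversed, with GAGAG at 13 of 54 in the window (24.1%), against 29.2% of all pooled summits. CAGGTAG, the word of the early activator Zelda, occurred at 0 of 9, against 0.798% of all IDR summits.

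Genes of fixed lists, put together around the roles and the protein family of bab1 and bab2, were then counted. Whether the listed genes act with bab1 or bab2 was not tested. The same rule was used, an IDR summit in the body or within 10 kb, which 52.6% of all protein-coding genes met. Listed genes are longer than most, and longer genes meet the rule more often, so these counts are a description. Of 19 further genes of the abdominal pigmentation network 13 met it, with 38 IDR summits at abd-A, the tagged gene itself, 25 at the Hox partner gene hth, and 7 each at the T-box gene bi and the POU gene pdm3. Abd-B had 6, as did bab2, while bab1 had 3. The sex-determination gene dsx and the pigment genes y, e, t and b had none, nor had exd. The pigment genes Ddc and ple had 2 and 3, all of them more than 2 kb from the gene body. Of 18 further limb genes 13 met the rule, led by hth with 25, the BTB gene ab with 11 and the LIM-homeodomain gene Lim1 with 8, while Dll, ss, rn, B-H1 and exd had none. The limb gene tal is annotated under other symbols, among them tal-1A, which had 6 IDR summits in the body or within 10 kb, and it was not in this count.

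Other BTB domain transcription factor genes met the rule in 13 of 14 cases, with 20 IDR summits at psq and 11 each at lola and ab. Their median was 6 summits, equal to bab2 and above bab1, against 1 for all protein-coding genes. Only Cp190, an insulator protein gene, had none in this list. Genes of somatic ovary development met the rule in 9 of 10 cases, among them hth, the ecdysone receptor gene EcR with 12 and br with 6. The lists share members (hth in 3, exd, en, hh, dsx, ab, br and fru in 2 each), so they are not independent.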

How the data were processed

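The deposited data were 5 peak lists in narrowPeak format on dm6, with 3 replicate lists, a pooled list and an IDR list. According to the deposited text records, the replicate lists were called against 1 control file, the pooled list on all alignments, and the IDR list was made from those 4 lists. No aligner, caller or IDR cutoff is named there. The deposited score of each peak has no stated scale, so the authors' score was divided by the median of its own list. Read depth is unknown, and the replicate and pooled lists have equal lengths.

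Genes came from Ensembl release 115 and sequence from RefSeq's copy of genome release 6, which shares coordinates with dm6. The lists were limited to the main arms. Replicate scores belong to the nearest summit within 100 bp, and list support means overlap of at least 1 bp. The sequences at 3 of the 9 IDR summits are not reported here. Summit counts, word searches and the marking of annotated bases were tested on simulated data. Peak overlaps were not tested in that way. Python 3.11.15, numpy 2.4.6, pandas 2.3.3, scipy 1.17.1 and matplotlib 3.10.9 were used. The window's shares of pooled summits in the IDR list and in all 3 replicate lists have 95% Clopper-Pearson intervals, which cover counting error only. Other shares are given without an interval.

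With 1 group there was nothing to test, and no p-value was computed. The genes, lists and words were chosen with earlier results of these data known. The genes named are bab1, bab2, all genes overlapping the window, the 3 genes of each list with the most IDR summits, and the 3 coding genes within 25% of the length of each member whose IDR summit number is nearest, with ties going to the nearest length. Other list genes are named after their values were seen.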

Additional observations from a re-analysis of the deposited data

How the results depend on the processing

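Of 43 alternative values for 14 results, 7 moved beyond 1.5 times or beyond the error of the value reported. The other 36 include wide-interval shares of 9 summits and values that could hardly change, such as 0 summits between the genes. Among the stronger 50% of IDR peaks the window held 5 summits, the bab2 body 4 and the bab1 body 1. Keeping 50% of the list lowers such counts by itself. The window density by that cut was 1.02 times that of the arms. Counting all pooled peaks put the window density at 1.5 times the arms. Support in all 3 replicate lists was 50% with summits within 100 bp and 59.3% with 50% overlap of both peaks. These stricter rules were not applied to all pooled peaks, so the 2 shares cannot be set against the 82.1% found by 1 bp overlap. With all peaks of each replicate list the window held 51.3 summits on average, a rise that longer lists bring by themselves. Against the median of the 8143 strongest peaks the best bab2 peak stood at 2.26 times. Leaving out 1 replicate moved that peak between 4.84 and 5.75 times the list median, and the strongest peaks per replicate between 8 and 9. Hox words, found at 22.2% within 100 bp, were found at 11.1% of the window's IDR summits within 50 bp and 33.3% within 150 bp, against 11.6% and 27.0% of all IDR summits.

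Read depth, which sets how weak a peak can be called, is unknown here. The control behind the peak calls was not analysed here, and no library without the tag was compared. Binding and nonspecific precipitation cannot be told apart. Replicates share 1 control file. No paired analysis was possible because there is 1 group.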

Other observations

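In the flank past the 3' end of bab1 the gene trio, a guanine nucleotide exchange factor gene of axon guidance, carried an IDR summit (1030085) at 2.19, 1.73 and 1.22 times the list median in replicates 1, 2 and 3. It was the most variable of the weaker IDR summits, and in replicate 3 it ranked 11681. The small gene CG9205 (1034697 to 1036298), between trio and bab1, held 0 pooled summits.

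Replicate 2 had a peak between the genes, close to the 3' end of bab2 (1137895 to 1138390), at 2.49 times the list median and rank 3381. The nearest summit in replicate 3 lay 126 bp away at 0.79 times the median, and in replicate 1 the nearest lay 1144 bp away (1139287) at 1.65 times the median and rank 7642, also among the 8143 strongest peaks of its list. The pooled list had 0.54 times the median there. The cause was not tested.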
